A study of Mus musculus with 4 samples.

Results

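The tubulin genes examined here were 10 rows of an RNA sequencing count table of tumor associated macrophages (TAMs): the beta-tubulins Tubb6, Tubb5, Tubb2a, Tubb2b, Tubb3 and Tubb4b and the alpha-tubulins Tuba1a, Tuba1b, Tuba1c and Tuba4a. They were found by matching Ensembl identifiers, without their version, to these symbols in GENCODE release M21. All 10 were present among the 54146 genes of the table, and all 10 passed the filter on low counts that left 14688 genes. The list was drawn up with the difference between propranolol and control libraries in these same data known, so that difference is described for the 10 genes and not tested. TAMs were live CD11b+ F4/80+ cells, sorted by flow cytometry after magnetic enrichment of CD45+ cells from tumors of MCA205, a mouse fibrosarcoma line. All mice were females of 8 to 16 weeks with 1000000 MCA205 cells injected under the skin of the flank, and the labels name no strain (the methods describe C57BL/6 and NMRI-nu/nu mice). Propranolol, a nonselective blocker of beta-adrenergic receptors, was dissolved in the drinking water at 0.5 g/L from the day of tumor inoculation for 2 of the libraries (the propranolol group), and the other 2 libraries came from mice whose treatment is labelled vehicle (the control group). The labels do not say whether a library came from 1 mouse or from pooled mice, so p-values measure only the spread between these libraries.

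Microtubules are hollow polymers of alpha- and beta-tubulin heterodimers, and both subunits are encoded by families of closely related genes, the isotypes, that differ mainly at their C-terminal tails. In macrophages, microtubules carry phagosomes, lysosomes and secretory vesicles and shape cell migration. Cells also adjust tubulin mRNA to the amount of free heterodimer, since an excess triggers decay of tubulin mRNA on the ribosome, a process called autoregulation.

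The libraries held 13798249 and 23018142 counts in the control group and 39818103 and 16424081 in the propranolol group, with replicate 1 named first throughout. Levels are given as CPM, counts scaled to a TMM-normalized library size of 1000000, in which 1 count is worth 0.0674, 0.0399, 0.0275 and 0.0655 CPM in the 4 libraries. Where genes are compared with each other, levels are given as TPM, which also divides by the length of all exons of the gene. The sort markers were present, with Adgre1 (F4/80) at 975, 1010, 1150 and 1100 CPM and Itgam (CD11b) at 359, 352, 369 and 313 CPM. Called changed were genes with an adjusted p under 0.05 in the edgeR quasi-likelihood test that differed by more than 1.5-fold.

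TAMs from propranolol treated mice had more of most alpha- and beta-tubulin transcripts. Of the 10 genes, 7 were called higher (Tubb6, Tubb5, Tubb2a, Tubb4b, Tuba1b, Tuba1c and Tuba4a) and 0 lower, where 12.2% of all tested genes were called higher, 15.6% lower and 27.8% changed in either direction. Since the genes were picked on this contrast, nothing is read from that count. The median log2 fold change of propranolol over control was 0.96 over the 10 genes and -0.02 over all tested genes. In 8 of the 10 genes both propranolol libraries lay above both control libraries, as they did in 35.8% of all tested genes, and in 72.6% of tested genes the groups did not overlap in one direction or the other. Tubb6 had the largest difference of the 10 and Tuba1a the smallest. The plot of CPM by library shows the 4 values of each gene.

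**Figure D1:**
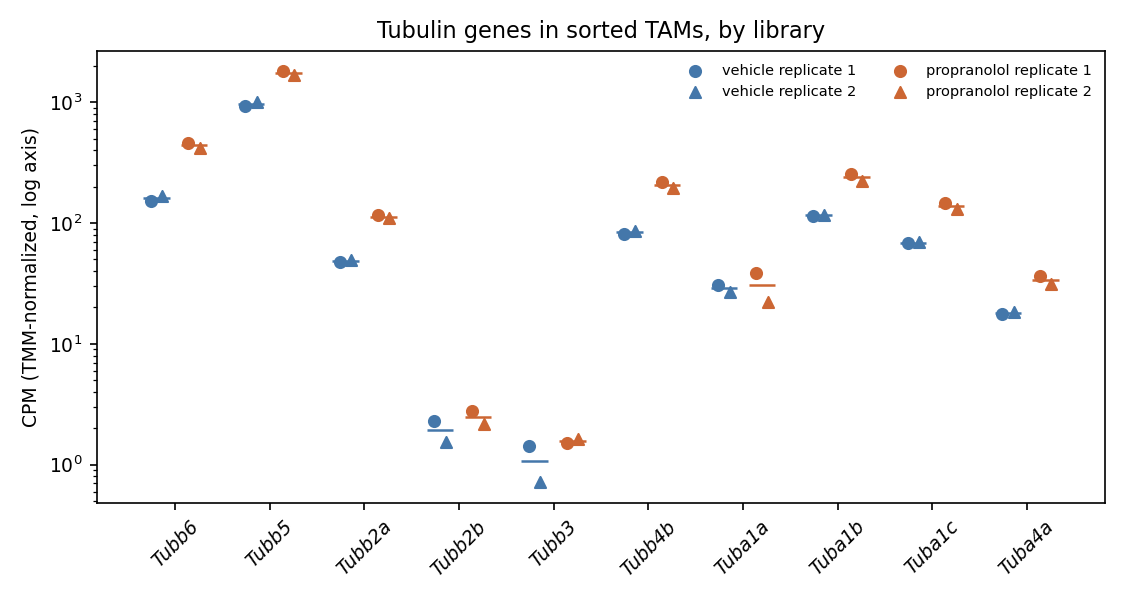
TMM-normalized CPM on a log axis for the 10 tubulin genes (circles replicate 1, triangles replicate 2, blue control libraries labelled vehicle, orange propranolol libraries, horizontal lines group means, n = 2 per group). The propranolol libraries sit above the control libraries in 8 genes, and the groups overlap in Tubb2b and Tuba1a.

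The summed level of the 10 genes was 1726 and 1864 TPM in the control libraries against 3143 and 2978 TPM with propranolol. The propranolol mean was 1.71 times the control mean, and the groups did not overlap. Tubulin transcripts thus took 0.173% and 0.186% of all TPM in the control libraries against 0.314% and 0.298% with propranolol. Alpha-tubulins summed to 369.1, 380.4, 638.7 and 564.8 TPM and beta-tubulins to 1357, 1483, 2504 and 2413 TPM. The summed transcripts of both subunits of the heterodimer were therefore higher with propranolol. The ratio of alpha- to beta-tubulin TPM was 0.272 and 0.256 in the control group and 0.255 and 0.234 in the propranolol group, a difference about as large as the gap within each group. TPM divides by all exons, although parts of the Tuba1 genes and some others may not have been counted (below). The size of the alpha to beta ratio is therefore uncertain. When only stretches of 75 bases in no transcript of another gene made up the length, the summed level was also larger. The means were then 2654 TPM in the control group and 4485 TPM with propranolol, 1.69 times. In bulk RNA from a sorted population, a different number of cells of one kind and a different amount of RNA per cell cannot be told apart.

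The 10 genes lie on 7 chromosomes (positions on GRCm38, as in GENCODE M21). Tuba1b (chr15:98931425-98934565, minus strand), Tuba1a (chr15:98949837-98953703, minus strand) and Tuba1c (chr15:99029891-99038110, plus strand) form a cluster of 107 kb. Tubb2a (chr13:34074274-34078007) and Tubb2b (chr13:34126748-34130466) lie within 56.2 kb on the minus strand. The other genes stand alone: Tubb6 (chr18:67390717-67402749, plus strand), Tubb5 (chr17:35833921-35838306, minus strand), Tubb3 (chr8:123411424-123422015, plus strand), Tubb4b (chr2:25222160-25224702, minus strand) and Tuba4a (chr1:75214228-75219865, minus strand). Within the cluster on chromosome 15, the log2 fold changes of Tuba1b (1.04) and Tuba1c (1.01) were close and that of Tuba1a (0.10) was smaller.

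How much of each gene could be counted may not have been the same for all of them. The authors kept only alignments of high mapping quality, and some genes share long stretches with a gene elsewhere. Other shared stretches lie where exons of another gene overlap at the same place, as for Tuba4a. These are a matter of how overlaps were counted and not of mapping quality. The coding sequences of Tuba1a and Tuba1b were 98.3% identical, those of Tuba1b and Tuba1c 97.9% and those of Tubb2a and Tubb2b 96.5%, whereas Tubb6 was 80.2% identical to Tubb5 and 85.9% to Tubb3. Of the stretches of 75 bases in the transcripts of a gene, 100% occurred in no other gene for Tubb6, Tubb5 and Tubb3. The share was 70.09% for Tubb4b, 69.83% for Tubb2b, 66.57% for Tuba4a, 56.77% for Tubb2a, 51.13% for Tuba1c, 29.96% for Tuba1b and 29.55% for Tuba1a. The Tuba1 genes shared most with each other and Tubb2a with Tubb2b, whereas Tubb4b shared most with the pseudogene Tubb4b-ps1 and Tuba4a only with the overlapping gene Stk16. Levels of the Tuba1 genes and of Tuba4a, Tubb2a, Tubb2b and Tubb4b are therefore uncertain against the other isotypes, while a comparison of one gene between libraries uses the same stretches on both sides. Exons of other genes also overlap some members: Gm49450 covers 26.2% of the exon bases of Tuba1a and 22.7% of those of Tuba1b, Stk16 covers 37.3% of those of Tuba4a on the opposite strand, and Fam166a covers 5.8% of those of Tubb4b on the opposite strand. Gm49450 itself had 0, 0, 3 and 1 counts.

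RefSeq promoter windows of 250 bases before the transcript start (GRCm38.p6) were at hand for 8 of the 10 genes, all but Tubb6 and Tubb2b. They were searched on both strands for TGACGTCA (the cAMP response element), CCAAT (the CCAAT box), GGGCGG (the GC box) and TATAAA (the TATA box). Of the 8 windows, 1 held TGACGTCA, 5 held CCAAT, 6 held GGGCGG and 1 held TATAAA, against 1.55%, 33.8%, 32.7% and 12.4% of the 32851 windows of all genes. Shown are the 3 windows that overlap no annotated exon, all from genes called higher: Tubb2a (chr13:34078009-34078258, minus strand), Tubb4b (chr2:25224703-25224952, minus strand) and Tuba1c (chr15:99029641-99029890, plus strand), 5′ to 3′ on the strand of the gene. Capitals mark the matches, with CCGCCC and ATTGG as GGGCGG and CCAAT read from the opposite strand.
Tubb2a: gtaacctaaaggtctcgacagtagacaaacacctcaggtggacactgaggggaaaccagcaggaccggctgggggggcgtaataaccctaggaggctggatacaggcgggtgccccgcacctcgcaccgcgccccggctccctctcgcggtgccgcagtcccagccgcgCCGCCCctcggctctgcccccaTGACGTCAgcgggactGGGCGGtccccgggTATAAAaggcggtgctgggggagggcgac
Tubb4b: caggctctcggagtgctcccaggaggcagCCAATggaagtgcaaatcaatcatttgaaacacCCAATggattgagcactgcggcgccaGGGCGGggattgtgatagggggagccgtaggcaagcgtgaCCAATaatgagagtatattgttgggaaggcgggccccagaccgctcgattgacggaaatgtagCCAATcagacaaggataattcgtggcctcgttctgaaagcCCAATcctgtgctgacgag
Tuba1c: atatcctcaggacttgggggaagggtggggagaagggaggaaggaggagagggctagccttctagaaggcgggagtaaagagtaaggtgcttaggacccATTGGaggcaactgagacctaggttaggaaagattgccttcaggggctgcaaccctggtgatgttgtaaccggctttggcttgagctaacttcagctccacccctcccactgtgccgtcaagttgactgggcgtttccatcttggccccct
The Tubb2a window was the one with TGACGTCA, which began 59 bases before the start, and with TATAAA, which began 29 bases before it. The Tubb4b window held 5 CCAAT matches, that of Tuba1c held 1, and none of the matches overlapped another. These matches are letters in a window and say nothing of binding.

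Among the beta-tubulins, Tubb6 encodes the class V isotype, a widely expressed and usually minor isotype. It had 2255, 4192, 16676 and 6378 counts, or 152 and 167 CPM in the control libraries against 459 and 418 CPM with propranolol (160 ± 10.6 against 438 ± 29.0, mean ± SD, n = 2 per group). Every propranolol library was more than double every control library. The log2 fold change was 1.46 ± 0.10 (SE), and 0.701% of all tested genes had a larger one. Over the 14 other settings tried, from library scaling to leaving out a library, it ran from 1.13 to 1.55.

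Tubb5 encodes the class I isotype, the constitutive beta-tubulin of most cells, and was the most abundant tubulin gene in all 4 libraries. Its level was 938 and 994 CPM in the control group and 1800 and 1680 CPM in the propranolol group, a log2 fold change of 0.85 ± 0.09 (SE). The groups stood apart by far more than the gap within either of them. Its difference was nevertheless the smallest of the 7 genes called higher.

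Tubb4b and Tubb2a encode the class IVb isotype, found in most tissues and in cilia, and a class II isotype that is abundant in brain. Tubb4b stood at 81.7 and 86.3 CPM in the control group and at 218 and 195 CPM in the propranolol group, a log2 fold change of 1.30 ± 0.10 (SE). Tubb2a stood at 47.4 and 49.4 CPM against 117 and 109 CPM, a log2 fold change of 1.22 ± 0.11 (SE). In both genes the lowest propranolol library was more than double the highest control library.

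The other class II gene, Tubb2b, and the class III gene Tubb3 are neuronal isotypes and had few counts. Tubb2b had 34, 39, 101 and 33 counts, or 2.29 and 1.55 CPM in the control libraries against 2.78 and 2.16 CPM with propranolol, so its groups overlapped (log2 fold change 0.39 ± 0.41, SE). Tubb3 had 21, 18, 55 and 25 counts, or 1.42 and 0.717 CPM against 1.51 and 1.64 CPM (log2 fold change 0.59 ± 0.52, SE). The Tubb3 groups were separate by less than the gap between the control libraries. Leaving out 1 control library moved the log2 fold change of Tubb2b between 0.14 and 0.74 and that of Tubb3 between 0.16 and 1.18, and neither gene was called.

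Among the alpha-tubulins, Tuba1b, the ubiquitous isotype, and Tuba1c had differences of similar size. Tuba1b was at 115 and 117 CPM in the control group and 255 and 222 CPM in the propranolol group (log2 fold change 1.04 ± 0.10, SE). Tuba1c was at 67.7 and 70.0 CPM against 147 and 131 CPM (log2 fold change 1.01 ± 0.11, SE). For both, the control libraries lay close together and the propranolol libraries well above them, with replicate 1 the higher one.

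Tuba4a, an isotype whose mRNA, unlike most alpha-tubulins, does not encode the C-terminal tyrosine, was lower in abundance. It had 17.7 and 18.5 CPM in the control libraries against 36.6 and 31.5 CPM with propranolol, a log2 fold change of 0.91 ± 0.14 (SE). The groups did not overlap, but the call was lost when the edgeR test was run against a 1.5-fold change, in which the other 6 kept it.

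Tuba1a, the main alpha-tubulin of developing neurons, differed from its neighbours on chromosome 15. Its level was 30.9 and 27.0 CPM in the control libraries against 38.9 and 22.1 CPM with propranolol. The propranolol libraries thus lay on either side of both control libraries. The log2 fold change was 0.10 ± 0.22 (SE) and its sign depended on the setting, with a range of -0.38 to 0.46 that was set by which propranolol library was left out. It was below zero in 4 of 14 other settings, among them scaling by library totals alone and a correction for GC content.

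**Figure D2:**
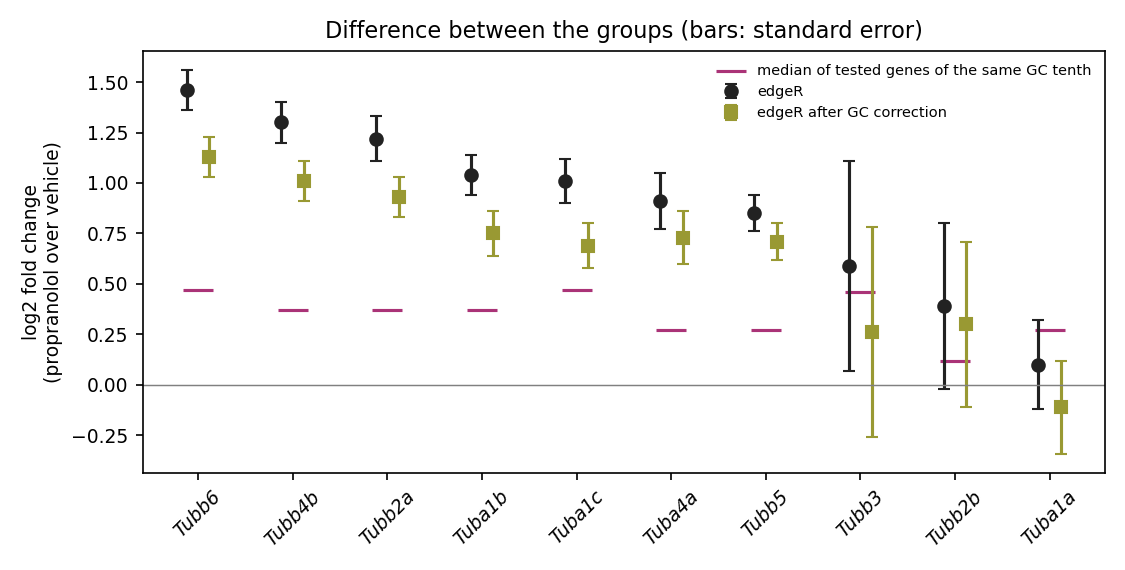
Log2 fold change of propranolol over vehicle for the 10 tubulin genes from edgeR (black circles) and from edgeR after a correction for GC content (olive squares), bars giving the standard error, and the median of all tested genes in the same decile of GC content (purple lines). Tubb6 is highest in both fits at 1.46 and 1.13, and Tuba1a is near zero in both.

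On the scale per length, the order of levels in the control group was Tubb5 (923 and 1010 TPM), Tubb6 (204 and 231 TPM), Tuba1b (201 and 210 TPM), Tubb4b (128 and 139 TPM), Tuba1c (96.9 and 103 TPM), Tubb2a (96.4 and 103 TPM), Tuba1a (56.1 and 50.4 TPM), Tuba4a (15.6 and 16.9 TPM), Tubb2b (3.27 and 2.28 TPM) and Tubb3 (2.48 and 1.29 TPM). Tubb6 and Tuba1b, Tuba1c and Tubb2a, and Tubb2b and Tubb3 did not differ from each other beyond the spread of their libraries. With propranolol the order was Tubb5 (1490 and 1450 TPM), Tubb6 (519 and 492 TPM), Tuba1b (375 and 340 TPM), Tubb4b (288 and 268 TPM), Tubb2a (201 and 195 TPM), Tuba1c (177 and 165 TPM), Tuba1a (59.6 and 35.2 TPM), Tuba4a (27.3 and 24.4 TPM), Tubb2b (3.34 and 2.7 TPM) and Tubb3 (2.23 and 2.52 TPM). There, no neighbours in the order overlapped, and Tubb2a stood above Tuba1c. The order was otherwise that of the control group. Both orders divide by all exons, as if every stretch could be counted. Only 29.96% of the stretches of Tuba1b, 29.55% of Tuba1a and 51.13% of Tuba1c were unique, against 100% for Tubb6, Tubb5 and Tubb3. The places of the Tuba1 genes, and of the other genes with shared stretches, are therefore uncertain, as is the likeness of Tubb6 and Tuba1b.

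The rule set Tubb6 against the other isotypes, so its share of the beta-tubulin TPM was followed in each library. Tubb6 made up 15% and 15.6% of beta-tubulin TPM in the control libraries against 20.7% and 20.4% with propranolol, a difference of 5.26 percentage points where replicates differed by less than 1 point. Tubb5 took 68.0% and 67.8% in the control group and 59.5% and 60.2% in the propranolol group, so its share dropped by 8.06 points although its own level was higher. The share of Tubb6, Tubb4b and Tubb2a was larger with propranolol and that of Tubb5 smaller. Tubb4b went from 9.44% and 9.38% to 11.5% and 11.1%, and Tubb2a from 7.10% and 6.97% to 8.01% and 8.07%. Tubb2b had 0.197% ± 0.0616 of beta-tubulin TPM in the control group and 0.123% ± 0.0151 with propranolol, and Tubb3 had 0.135% ± 0.0676 and 0.0968% ± 0.0106 (mean ± SD, n = 2 per group).

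Within the alpha-tubulins the share of Tuba1a was smaller with propranolol, at 15.2% and 13.3% in the control group and 9.32% and 6.24% in the propranolol group. Tuba1b held 54.3% and 55.2% against 58.7% and 60.3%, and Tuba1c 26.2% and 27.1% against 27.7% and 29.2%. Stretches shared between the Tuba1 genes may have yielded few counts, and where the reads fell was not measured. TPM divides by all exons, so the shares carry the uncertainty stated above. Tuba4a stayed at 4.23%, 4.44%, 4.27% and 4.33%, with overlapping groups.

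**Figure D3:**
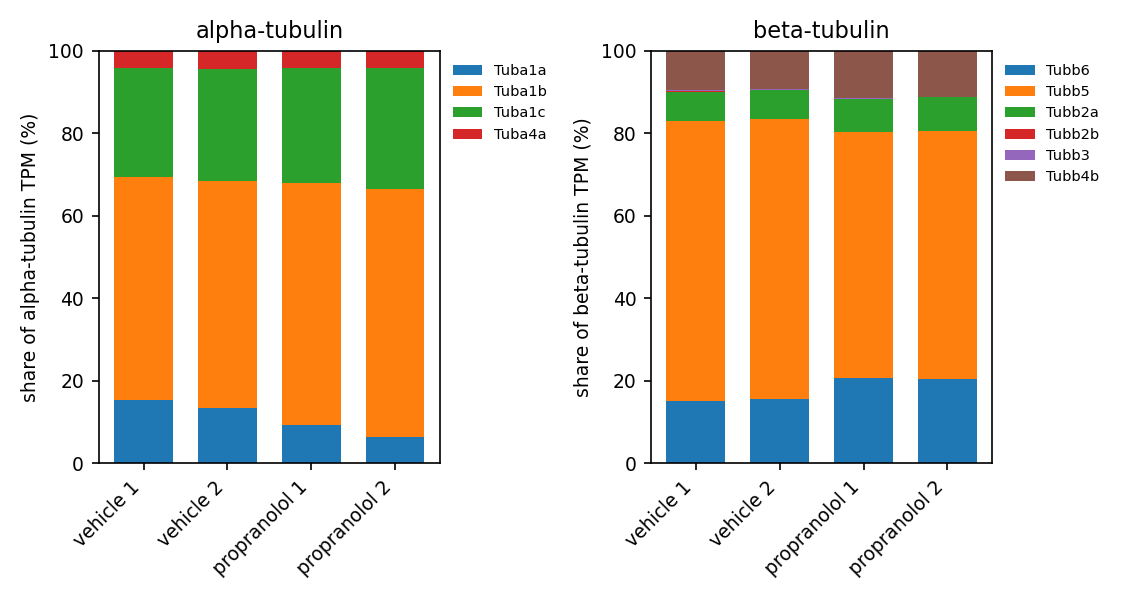
Share of each isotype in the alpha-tubulin (left) and beta-tubulin (right) TPM of each library, in percent, each bar adding up to 100%. Tubb6 takes 15% and 15.6% of beta-tubulin in the vehicle bars and 20.7% and 20.4% in the propranolol bars, and Tubb5 takes less of it.

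Pairwise ratios placed Tubb6 against each isotype in the same library, where the scaling between libraries cancels. The log2 ratio of Tubb6 to Tubb5 CPM was -2.62 and -2.57 in the control libraries against -1.97 and -2.01 with propranolol, a difference of 0.61 with a gap of at most 0.05 within a group. Tubb6 also gained on every other beta-tubulin, by 0.16 on Tubb4b, 0.23 on Tubb2a, 0.81 on Tubb3 and 1.08 on Tubb2b. For Tubb3 the gap within the control group, at 1.12, was larger than that difference, and for the other 4 beta-tubulins it was smaller. Against the alpha-tubulins the difference was 0.42 for Tuba1b, 0.45 for Tuba1c, 0.55 for Tuba4a and 1.43 for Tuba1a. Tubb6 was thus closest to Tubb4b, with which it differed least between the groups. A trend with GC content (below) need not cancel in these ratios or in the shares, and neither was corrected for it. Tubb6 has a GC content of 56.6% and Tubb5 of 52%. Their log2 fold changes were 1.46 and 0.85 before the GC correction and 1.13 and 0.71 after it.

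The tested genes with the profile most like that of Tubb6 were found among 8854 genes outside the list with a mean of at least 10 CPM, by the root mean square difference of log2 CPM centred over the 4 libraries. They were F10 (0.057), Tgm1 (0.064), Hcar2 (0.073), Dcxr (0.082) and Gmppb (0.085), with log2 fold changes between 1.31 and 1.48. The nearest tubulin gene was Tubb4b at 0.083. F10 encodes coagulation factor X, Tgm1 a transglutaminase and Hcar2 a receptor for hydroxycarboxylic acids. For Tubb5 the nearest genes included Prpf31 (0.011), Ndufa11 (0.012), Eif6 (0.013) and Cyb561d2 (0.019), and the nearest tubulin gene was Tuba4a at 0.051. With 4 libraries in 2 groups, such likeness mostly restates an equal difference between the groups.

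A property that moved with the groups across all genes was GC content. The median log2 fold change was -0.94 in the decile of tested genes poorest in GC (30.8% to 41.2% in the longest transcript) and 0.46 in the richest decile (57.7% to 75.5%). The tubulin genes lie on the GC-rich side, from 51.2% for Tubb2b to 57.9% for Tubb3, with Tubb6 at 56.6%. The median of the GC decile that holds each of them was between 0.12 and 0.47, and 9 of the 10 lay above it, Tuba1a being the exception.

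After a correction for GC content, the number of changed genes went from 4084 to 1855, with 7.64% of tested genes higher and 12.6% changed, and the median of all genes shifted from -0.02 to 0.09. The same 7 tubulin genes were called higher. Tubb6 remained the highest at 1.13 ± 0.10 (SE), followed by Tubb4b at 1.01 and Tubb2a at 0.93. Tuba1b had 0.75, Tuba4a 0.73, Tubb5 0.71 and Tuba1c 0.69, and the median of the 10 genes was 0.72. Whether the GC trend arose in the cells or in the libraries cannot be told apart, since it runs along the groups.

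**Figure D4:**
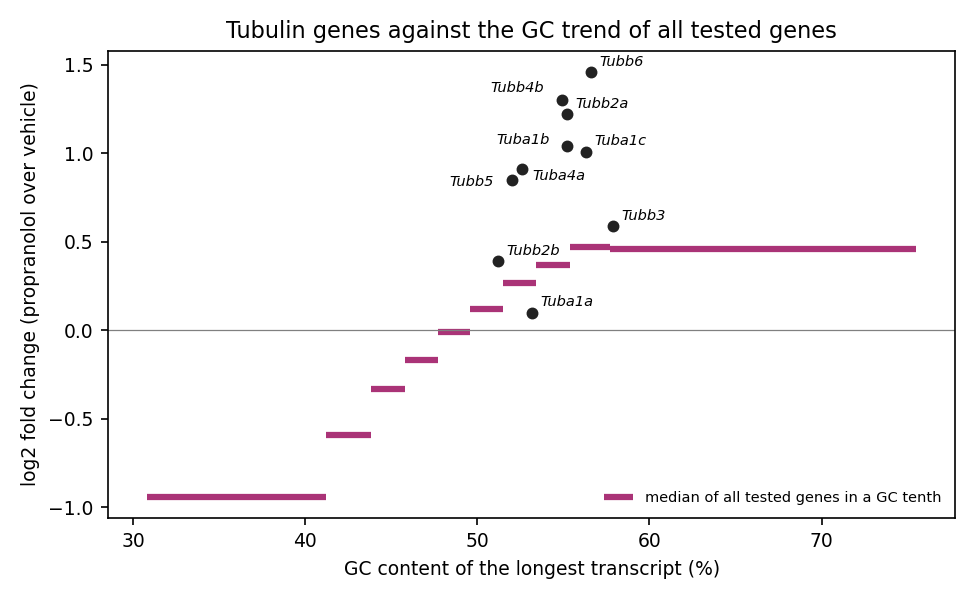
Log2 fold change of propranolol over vehicle against the GC content of the longest transcript in percent, for the 10 tubulin genes (points) and the median of all tested genes in each decile of GC content (purple lines, spanning the decile). The medians climb from -0.94 to 0.46, and 9 of the 10 tubulin genes lie above the median of their decile.

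Of 10 further alpha-, beta-, gamma-, delta- and epsilon-tubulin genes, 5 passed the filter, with 2 higher and 0 lower. Tubg1, the gamma-tubulin that nucleates microtubules at the centrosome, was at 35.8, 41.5, 66.0 and 61.7 CPM (log2 fold change 0.72, adjusted p = 0.00119), a call that was lost after the GC correction (0.39), with library totals alone and when tested against a 1.5-fold change. Tubb4a, a neuronal and oligodendrocyte isotype, was at 1.69, 2.47, 4.48 and 3.86 CPM (log2 fold change 0.99, adjusted p = 0.0437), and its call was lost in 10 alternatives, DESeq2 among them. Tuba8 (0.67, adjusted p = 0.267), Tubd1 (0.18, adjusted p = 0.613) and Tube1 (0.03, adjusted p = 0.933) did not pass. Tubb1, the platelet beta-tubulin, had 3, 12, 5 and 7 counts, and Tubal3 had 0 in all 4 libraries.

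Across 9 lists of microtubule genes outside the 10 members, 148 of 172 genes were tested, of which 20 rose and 28 fell, so that 32.4% changed, close to the 27.8% of all tested genes. Their median log2 fold change was 0, and after the GC correction 12 were higher and 10 lower. The split depended on the scaling, the filter, the test and the libraries used, with 3 higher and 36 lower under library totals alone. It was 1 higher and 12 lower when edgeR tested against a 1.5-fold change, and 30 and 23 with no filter on low counts. Without control replicate 1 and without propranolol replicate 2, more of these genes were higher than lower. A log2 fold change over 1.5, another alternative, ends by its construction every call of a smaller size, which is not repeated for each gene below. The counts of each list below stand beside 12.2% higher and 15.6% lower among all tested genes. After the GC correction, 7.64% of all tested genes were higher and 12.6% changed.

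Of 15 tested subunits of the chaperonin CCT and of prefoldin, which fold new tubulin and actin, 2 rose and 1 fell. The number higher was 0 with library totals alone, 3 after the GC correction and 4 with no filter on low counts. It was also larger without control replicate 1 or without propranolol replicate 2, and smaller without propranolol replicate 1. Cct7 was at 202, 205, 331 and 282 CPM (log2 fold change 0.59, adjusted p = 0.0017), a call lost in 7 alternatives, and Pfdn2 rose from 35.5 and 33.6 to 56.4 and 53.6 CPM (0.67, adjusted p = 0.00131), a call lost with library totals alone and when tested against a 1.5-fold change. The prefoldin subunit Vbp1 fell (-1.88, adjusted p = 0.000103), but with a GC content of 35.5% its value after correction was -0.43 and the call was lost. Of 7 genes listed as tubulin folding cofactors, 3 rose and 2 fell, and after the GC correction 2 were higher and 1 lower. Tbcb, which handles alpha-tubulin, rose from 61.9 and 61.4 to 120 and 118 CPM (0.95, adjusted p = 0.000149). Tbca, which handles beta-tubulin, fell from 47.1 and 36.1 to 15.4 and 11.3 CPM (-1.62, adjusted p = 0.000207). The Tbca call held in every alternative, and the Tbcb call in all but a log2 fold change over 1.5.

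Of 12 tested genes of tubulin autoregulation, 0 rose and 4 fell, whereas after the GC correction 2 were higher and 0 lower. Among the subunits of the CCR4-NOT deadenylase, Cnot6 (-0.88, adjusted p = 0.000367), Cnot6l (-1.02, adjusted p = 0.000239) and Cnot7 (-0.93, adjusted p = 0.000558) fell, but all of them are poor in GC, and after the correction their values were 0.01, 0.14 and 0.15. The 2 factors particular to tubulin mRNA were looked at for their role after their values were seen. Ttc5, which recognizes nascent tubulin, was at 39.2, 46.0, 63.0 and 57.6 CPM (log2 fold change 0.50, adjusted p = 0.00916), short of a 1.5-fold change, and was called higher after the GC correction (0.77, adjusted p = 0.00228). Scaper, the adaptor to the deadenylase, was at 17.3, 16.0, 9.98 and 10.6 CPM (-0.69, adjusted p = 0.00865), and its value after correction was -0.15.

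Of 18 tested enzymes that modify tubulin, 2 rose and 1 fell, which is 16.7% against 27.8% of all tested genes. After the GC correction 0 were higher and 1 lower, and with no filter on low counts 4 were higher and 1 lower of 21. More were also changed without propranolol replicate 1 or without control replicate 2, so nothing is read from the small share. The tubulin tyrosine ligase-like genes Ttll12 (0.79, adjusted p = 0.000735) and Ttll1 (0.73, adjusted p = 0.00784) rose, and their calls were lost after the GC correction, with library totals alone and when tested against a 1.5-fold change. Svbp, the partner of the vasohibins that remove the C-terminal tyrosine of alpha-tubulin, fell from 47.3 and 47.5 to 31.6 and 26.3 CPM (-0.71, adjusted p = 0.00199), and its call was lost without propranolol replicate 2 and when tested against a 1.5-fold change. Of 16 genes of the gamma-tubulin ring complex and its anchors, 3 rose and 3 fell, and after the GC correction 0 were changed in either direction.

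Of 23 microtubule-associated and plus-end proteins, 2 rose and 7 fell, where 12.2% of all tested genes were higher and 15.6% lower. Their median log2 fold change was -0.43, and -0.26 after the GC correction, with 1 higher and 6 lower. Fewer of them were lower without control replicate 1 or without propranolol replicate 2, although lower calls still outnumbered higher ones. Map1s rose from 98.9 and 135 to 200 and 245 CPM (0.93, adjusted p = 0.00107), a call lost when tested against a 1.5-fold change. At low levels, the doublecortin-like kinase Dclk1 fell from 4.99 and 2.11 to 0.688 and 0.262 CPM (-2.74, adjusted p = 0.00482), a call kept in every alternative, and Map2 fell (-2.31, adjusted p = 0.0222), a call lost when tested against a 1.5-fold change. Among severing and destabilizing proteins 2 of 10 rose and 4 fell, with a median of -0.32, and after the GC correction 1 was higher and 2 lower, with a median of 0. Stmn1 (stathmin), which sequesters free heterodimers, fell from 83.4 and 73.8 to 39.7 and 34.6 CPM (-1.07, adjusted p = 0.000206), in the opposite direction to most tubulin genes and also after the GC correction (-1.16). The severing enzyme Spast (spastin) fell from 47.5 and 42.6 to 22.9 and 18.9 CPM (-1.10, adjusted p = 0.000331). Of 43 motor genes, 5 rose and 6 fell, but 3 were higher and 0 lower after the GC correction. The split was 0 higher and 9 lower with library totals alone, and 11 and 3 with no filter on low counts. Higher calls also outnumbered lower ones without control replicate 1 and without either propranolol replicate. Dync1h1, the heavy chain of cytoplasmic dynein, rose from 454 and 536 to 737 and 901 CPM (0.72, adjusted p = 0.00122), a call lost after the GC correction (0.49), with library totals alone and when tested against a 1.5-fold change.

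**Figure D5:**
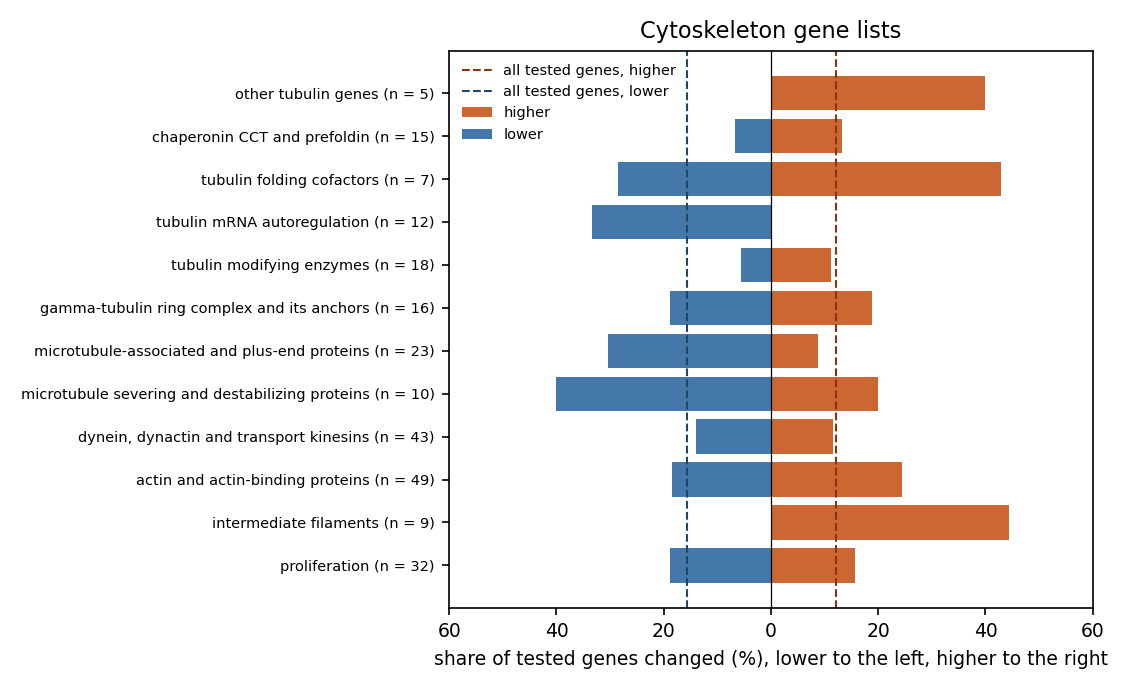
Percent of tested genes called lower (blue, to the left) and higher (orange, to the right) in each cytoskeleton list, n being the tested genes of a list, with dashed lines at 15.6% lower and 12.2% higher for all tested genes. Calls go in both directions in 9 of the 12 lists.

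Other cell types in the sort express tubulin genes too, so their markers were followed in the same libraries. The marker counts are without the GC correction, where 12.2% of all tested genes were higher and 15.6% lower. Of 10 markers of fibroblasts and fibrosarcoma cells, 8 fell, and their sum was 3280, 1190, 676 and 728 CPM, led by Col3a1 at 1290, 423, 212 and 225 CPM. Control replicate 1 stood apart from the other libraries in these genes. Without that library the median log2 fold change over the 10 tubulin genes was 1.07. The remaining control library still had a higher marker sum, at 1190 CPM, than either propranolol library. Leaving out control replicate 1 is therefore no test of the part of these cells.

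Of 9 T cell markers, 8 fell, with a sum of 260, 303, 139 and 75.5 CPM led by Cd8a, and of 6 NK cell markers all 6 fell, with a sum of 100, 105, 41.6 and 19.7 CPM led by Prf1. Of 12 neutrophil markers, 7 were tested and 5 rose, with a sum of 179, 211, 382 and 388 CPM. The most abundant, Csf3r, was at 97, 130, 154 and 180 CPM and was not called (log2 fold change 0.56). Of 8 platelet and megakaryocyte markers, 5 were tested and 2 rose, with a sum of 161, 147, 293 and 267 CPM, nearly all of it Pf4, while Gp1bb was at 0 in every library. The 9 neuronal markers, 2 of them tested and 1 lower, had a sum of 4.38, 3.75, 1.6 and 0.851 CPM, with Map2, the most abundant over the 4 libraries, at 2.36, 2.79, 0.825 and 0.0655 CPM and Elavl4 at 0. Of 12 macrophage markers, 1 rose and 0 fell, with a sum of 23500, 22600, 29500 and 26800 CPM led by Lyz2. Of the other lists, 2 of 6 dendritic cell markers fell and 0 rose, 1 of 4 tested endothelial markers rose and 0 fell, and of 2 tested B cell markers 1 rose and 1 fell. The part of these other cell types in the tubulin result was not tested.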

How the data were processed

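The authors aligned reads of poly-adenylated RNA to mm10 with STAR 2.7.1a, kept alignments above a mapping quality of 30 with SAMtools 1.9 and counted fragments on exons with featureCounts 1.6.4 (versions from the submitters' processing notes). They deposited raw counts per gene, 1 column per library. The annotation release and a strand option are not given in the sources used here. Columns were matched to libraries by the number in the labels, and 0 were left out. Of the 54146 genes, 54079 were matched to GENCODE M21. The counts were compared between 2 control and 2 propranolol libraries with the edgeR 4.0.16 quasi-likelihood test (R 4.3.3, limma 3.58.1), TMM factors of 1.08, 1.09, 0.914 and 0.931, filterByExpr at a minimum count of 10 and Benjamini-Hochberg adjustment. The steps were run on simulated counts in which 200 genes had a log2 fold change of 1.5 in either direction. The edgeR test recovered 94% of them, with 17 false calls. The simulation held a common dispersion and no GC trend. It therefore does not bear on the GC correction or on changes of a smaller size. Replicates of a group differed by more than sampling noise (chi-square per degree of freedom 10.6 and 13.7). An exact permutation test of 2 against 2 libraries cannot give a p below 0.333 and was not used.

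TPM used the length of all exons. The GC correction used offsets from a natural spline (5 degrees of freedom) fitted per library to log2 CPM relative to the mean of the libraries. Alternatives were DESeq2 1.42.0, other scalings and filters, a replicate block, limma-voom, glmTreat, a log2 fold change over 1.5 and leaving out each library.

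The 10 members, the gene lists and the marker lists were chosen with earlier results of these data known. Named genes were the members, all tested genes of the further tubulins, in each other list those with the highest mean CPM and the most extreme changed genes, of which a selection is given, the 5 nearest profiles of Tubb6 and Tubb5 (1 of them not reported here), and the most abundant marker per cell type. Adgre1 and Itgam were added as sort markers.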

Additional observations from a re-analysis of the deposited data

How the results depend on the processing

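The 7 tubulin genes called higher were the same in every alternative except the glmTreat test, which left 6, and a log2 fold change over 1.5, which left 0. Leaving out 1 library, with the lone library of a group assumed to vary like the other group, kept 7. Of 140 values of single members over the alternatives, 136 kept their sign, the exceptions all being Tuba1a, and 36 moved by more than the replicate spread. The 4084 changed genes (1798 higher, 2286 lower) became 1093 with glmTreat, 1855 (1122 higher, 733 lower) with the GC correction, 728 with a log2 fold change over 1.5, and 3615 to 4329 with a library left out. The split was 609 higher and 3497 lower with library totals alone, where the median of all genes was -0.25, and 1988 and 1664 without control replicate 1. The 48 changed microtubule pathway genes became 13 (1 higher, 12 lower) with glmTreat, 22 with the GC correction, 5 with a log2 fold change over 1.5 and 45 to 51 with a library left out. The gain of Tubb6 in its share of beta-tubulin was 5.26 points, and it was 4.86 from CPM, 5.68 with the length of the longest transcript, 4.62 with stretches of 75 bases in no transcript of another gene (chosen after seeing the data) and 4.99 to 5.52 with a library left out. The ratio of summed levels was 1.71 from TPM, 1.97 from CPM and 1.64 to 1.77 with a library left out. Lengths unique across the whole genome were not run.

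The replicate numbers are shared by the groups, but nothing says that they pair the libraries, and the deviations of equal numbers correlated at 0.17. With the replicate block, 4362 genes, 49 pathway genes and 7 tubulin genes were changed, and with the block and the GC correction together 2128, 22 and 7. Tubb2b and Tubb3 rest on at most 101 counts per library. Of 192 counts of changed genes per list over the alternatives, 138 stayed within 1.5 times.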

Other observations

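Outside the microtubules, some actin and intermediate filament genes were also called changed. Of 49 tested actin and actin-binding genes, 12 rose and 9 fell, against 12.2% and 15.6% of all tested genes, with a median log2 fold change of 0.13. The split was 6 higher and 4 lower after the GC correction, 6 and 2 when tested against a 1.5-fold change, and 6 and 13 with library totals alone. Actb, the main cytoplasmic actin, rose from 12600 and 11900 to 22600 and 21900 CPM (0.86, adjusted p = 0.000103). Arpc1b, a subunit of the Arp2/3 complex that branches actin filaments, rose from 1240 and 1190 to 2330 and 2260 CPM (0.92, adjusted p = 0.000103), and the crosslinker Flna rose from 1200 and 1290 to 2320 and 2460 CPM (0.94, adjusted p = 0.000103). Tmsb4x (thymosin beta 4), which sequesters monomeric actin, fell from 3810 and 3630 to 2510 and 1740 CPM (-0.81, adjusted p = 0.00172), although its call was lost without propranolol replicate 2 and when tested against a 1.5-fold change. Capza2 also fell (-1.20, adjusted p = 0.000239), but it is poor in GC (36.1%) and its value after the GC correction was 0.16.

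Of 9 tested intermediate filament and linker genes, 4 rose and 0 fell, before and after the GC correction. Vim, the vimentin of mesenchymal and myeloid cells, rose from 1280 and 1220 to 2180 and 2100 CPM (0.77, adjusted p = 0.00018), a call lost with library totals alone and when tested against a 1.5-fold change. Plec, the linker plectin, rose from 376 and 387 to 658 and 835 CPM (0.97, adjusted p = 0.000272), and the lamin gene Lmnb2 from 58.3 and 67.2 to 123 and 124 CPM (0.97, adjusted p = 0.000195). Of 32 proliferation genes, 5 rose and 6 fell, whereas after the GC correction 5 were higher and 0 lower (7.64% of all tested genes were then higher). The replication helicase genes Mcm5 (0.99, adjusted p = 0.000125) and Mcm2 (0.86, adjusted p = 0.000172) rose, whereas Ccne2 (-1.51, adjusted p = 0.00335) and Cenpe (-0.97, adjusted p = 0.000245) fell, and the calls of the latter pair were lost after the GC correction.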
